A study of Drosophila melanogaster with 6 samples.

Results

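Complex III, complex IV and the ATP synthase are the last steps of oxidative phosphorylation in the inner mitochondrial membrane. Complex III passes electrons from ubiquinol to cytochrome c, complex IV (cytochrome c oxidase) passes them on to oxygen, and the ATP synthase uses the proton gradient that is built up on the way to make ATP. Their subunits are encoded partly by nuclear genes and partly by the mitochondrial genome. Indirect flight muscle of *Drosophila* is a strongly aerobic, stretch-activated muscle with many mitochondria packed between its myofibrils. The genes described here were chosen by their symbols, as those starting with UQCR- (complex III), with COX and a digit (complex IV) or with ATPsyn (ATP synthase), together with *cype* and *levy*, the fly genes for the COX6C-type and COX6A-type subunits of complex IV. This gave 39 of the 17611 genes in the count table, 8 for complex III, 16 for complex IV and 15 for the ATP synthase. Of these, 26 are main subunits encoded in the nucleus, 10 are copies whose symbol ends in L (L paralogs) and 3 are genes of the mitochondrial genome.

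RNA-seq was done on flight muscles dissected at 72 hours after puparium formation (APF) from pupae of 2 genotypes. In UAS-Antp pupae the Hox gene *Antp* was expressed (*Act88F-Gal4;UAS-Antpnls*), and in UAS-GFP pupae, the control, GFP was expressed (*Act88F-Gal4;UAS-GFPnls*). All pupae were kept at 25°C and carried the same late, flight muscle-specific driver, and each of the 3 samples per genotype held muscles of 6 to 8 pupae. The labels call the samples of a genotype independent replicates, whereas the methods of the study name 3 technical replicates and 1 biological replicate, so that the errors and P values given here measure only the spread between these samples.

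The UAS-Antp samples had total counts of 69673609, 77781458 and 63217976, are named by these totals and are always listed in this order, and the totals were 64485309, 47460809 and 59754817 in UAS-GFP replicates 1, 2 and 3. *Antp* itself had 716673, 1092524 and 517985 counts in UAS-Antp muscles, against 70, 33 and 66 in UAS-GFP muscles. All 7 flight muscle markers on the list used (*Mhc*, *Act88F*, *fln*, *TpnC4*, *up*, *wupA* and *sls*) were present in every library, and their summed level was 35426 to 40770 counts per 1000000 (CPM, after scaling by edgeR's TMM method) in UAS-Antp muscles, against 254503 to 286929 CPM in UAS-GFP muscles. All 7 were lower in UAS-Antp muscles past the threshold of 0.001 used throughout, and all but *sls* were so with libraries scaled by totals. Among the markers of other cell types, the 5 tracheal genes summed to 514 to 770 CPM in UAS-Antp samples and 2949 to 3777 CPM in UAS-GFP samples, and the 5 tendon and epidermis genes to 274 to 335 CPM and 704 to 826 CPM. Most tracheal counts came from *Osi18* (44295 to 84791 in UAS-Antp and 106681 to 109992 in UAS-GFP libraries). Of these lists, 4 tracheal genes and 1 tendon and epidermis gene were lower past the threshold, and with scaling by totals 1 and 0 were, with median log2 fold changes of -0.21 and 0.54. The 6 fat body genes were at 329 to 507 CPM in UAS-Antp samples and 294 to 540 CPM in UAS-GFP samples, and the 5 neuronal genes at 47.9 to 76.7 CPM and 48.1 to 55.5 CPM. The 5 hemocyte genes were at 15.0 to 41.0 CPM in UAS-Antp samples and 10.4 to 16.2 CPM in UAS-GFP samples. None of these 5 other lists had more than 1 gene at or under 3 counts in any library. Their part in the values that follow was not tested, and in such bulk samples fewer cells of a type and less RNA per cell cannot be told apart.

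All 26 main subunits were detected and tested, and 25 of them were lower in UAS-Antp muscles. The exception was *COX7A*, a subunit of complex IV, which was 25.5-fold higher. Each of the 26 passed 0.001 by its Benjamini-Hochberg adjusted P (edgeR's quasi-likelihood test, 9546 genes tested), and no gene had a sample of one genotype within the range of the other. Of the 9546 genes, 35.6% passed that threshold, 19.3% lower and 16.3% higher in UAS-Antp muscles, and the groups did not overlap in 30.6% of genes that were lower and 37.6% that were higher. The log2 fold changes of the 25 lower subunits lay between -3.10 (*COX5B*) and -2.11 (*levy*), with a median of -2.63 and an SD of 0.238 across genes. Over all genes tested the median was 0.17, and 8.93% of genes had a log2 fold change as low as that of *levy* or lower. With scaling by library totals in place of TMM, the range of the 25 became -1.78 (*COX5B*) to -0.80 (*levy*) and the median of all genes tested 1.48, and all 25 were still lower with an adjusted P of at most 0.000672 (edgeR), where 7.18% of all genes tested were lower past the threshold. That scaling gave 5656 genes past the threshold in all, 4971 of them higher, against 3397 and 1557 with TMM.

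**Figure D1:**
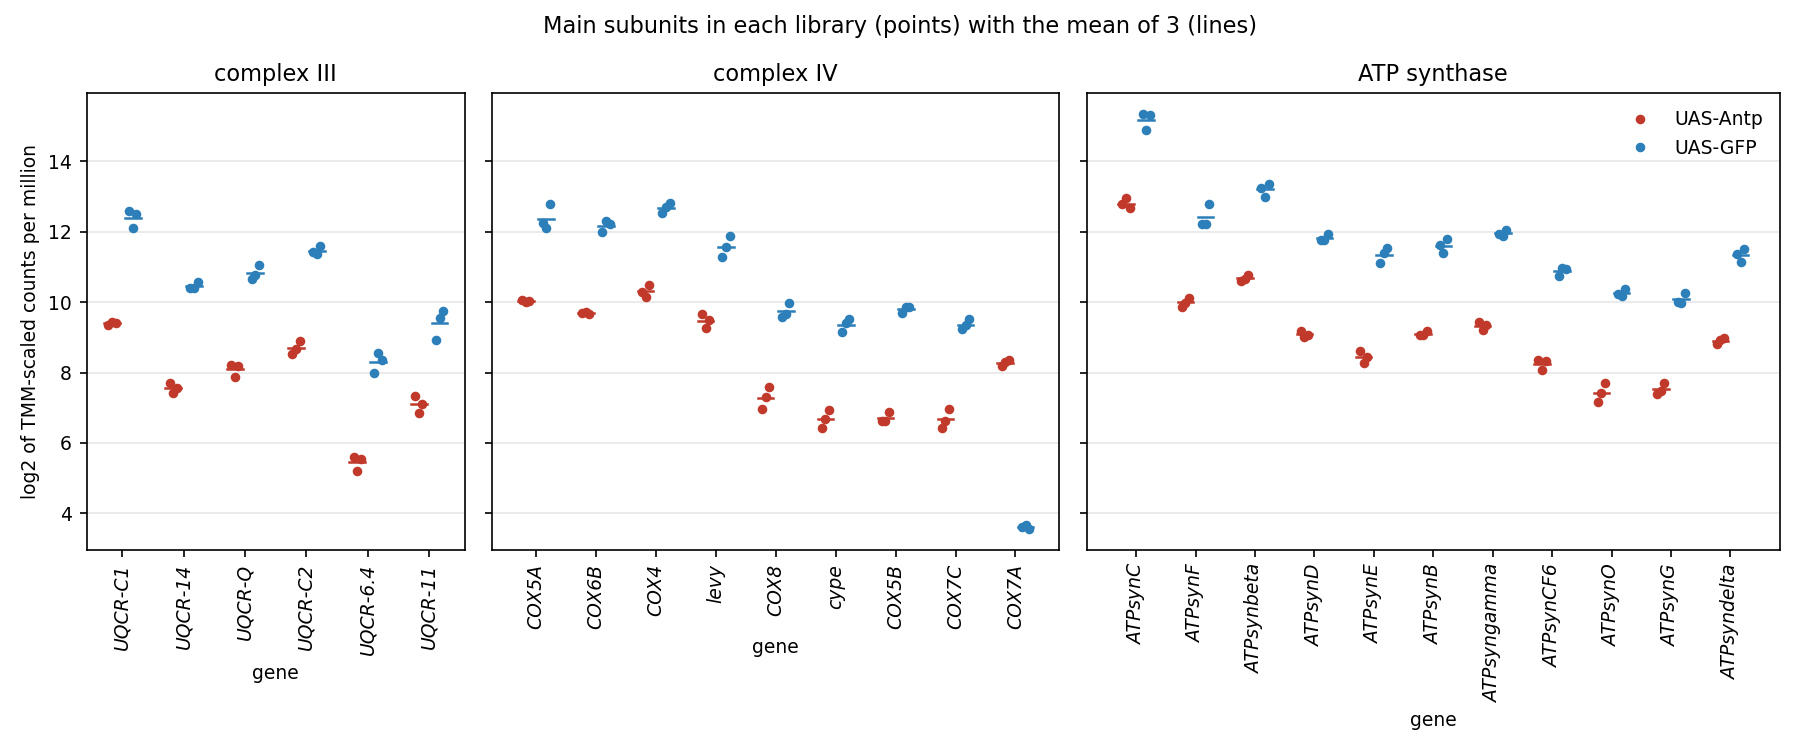
Level of the 26 main subunits in each library, as log2 of TMM-scaled counts per 1000000 (vertical axis), with the 3 UAS-Antp samples in red to the left of the 3 UAS-GFP samples in blue for each gene, and lines at the mean of 3. Genes stand in order of their level per kb of exon in UAS-GFP muscles, and the red points lie below the blue ones for 25 genes and above them for *COX7A* alone.

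In complex III all 6 main subunits were lower, with a median log2 fold change of -2.82, a fall of 7.05-fold. *UQCR-C1* and *UQCR-C2* are the large core proteins on the matrix side. *UQCR-C1*, the most abundant of the 6 per kb of exon in either genotype, was at 654, 693 and 679 CPM in the UAS-Antp samples, against 6202, 4393 and 5839 CPM in the UAS-GFP samples. This was the largest fall of the complex, with a log2 fold change of -3.02 (SE 0.15, adjusted P = 5.19e-08, edgeR). *UQCR-C2* was at 369, 404 and 475 CPM in UAS-Antp samples, against 2751, 2621 and 3110 CPM in UAS-GFP samples, with a log2 fold change of -2.76 (SE 0.13). The lowest UAS-GFP sample was thus several times above the highest UAS-Antp sample for both core proteins.

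The 4 small subunits of complex III named here moved the same way. *UQCR-14*, the fly gene for the 14-kDa subunit, was at 210, 171 and 188 CPM in UAS-Antp muscles, against 1351, 1356 and 1516 CPM in UAS-GFP muscles (log2 fold change -2.89, SE 0.12). *UQCR-Q*, for the ubiquinone-binding protein, was at 298, 233 and 292 CPM in UAS-Antp muscles, against 1625, 1760 and 2142 CPM in UAS-GFP muscles (log2 fold change -2.75, SE 0.15). *UQCR-6.4* had the lowest CPM of all the subunits that were lower, at 48.2, 37.1 and 46.3 CPM in UAS-Antp samples and 254, 378 and 331 CPM in UAS-GFP samples (log2 fold change -2.87, SE 0.17). The change was smallest for *UQCR-11*, at 161, 116 and 139 CPM in UAS-Antp samples, against 490, 744 and 865 CPM in UAS-GFP samples (log2 fold change -2.33, SE 0.21, adjusted P = 4.49e-06, edgeR). *UQCR-11* was also the main subunit that varied most between UAS-GFP samples, with an SD of 0.425 on the log2 scale, whereas the median SD of the 26 was 0.187 in UAS-GFP and 0.148 in UAS-Antp samples.

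In the ATP synthase all 11 main subunits were lower, with a median log2 fold change of -2.55 and a narrow range, -2.91 (*ATPsynE*) to -2.39 (*ATPsynC*). *ATPsynC* encodes the c subunit, which forms the rotating ring in the membrane, and was the most abundant of all 39 genes. It was at 7089, 7903 and 6489 CPM in UAS-Antp samples, against 41516, 30549 and 40733 CPM in UAS-GFP samples, a log2 fold change of -2.39 (SE 0.16, adjusted P = 3.76e-07, edgeR). This 1 gene held 1.13% ± 0.12 of all counts in UAS-Antp libraries and 2.37% ± 0.274 in UAS-GFP libraries (SD, n = 3 each). Second in level per kb of exon was *ATPsynF*, a small membrane subunit, at 928, 1015 and 1121 CPM in UAS-Antp samples, against 4754, 4776 and 7077 CPM in UAS-GFP samples (log2 fold change -2.44, SE 0.17). UAS-GFP replicate 3 stood above the other 2 for this gene, and it was the highest UAS-GFP sample for 19 of the 26 main subunits.

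*ATPsynE* and *ATPsynG* encode membrane subunits that link pairs of ATP synthases in yeast and mammals. *ATPsynE* had the largest fall of the enzyme, with 391, 310 and 346 CPM in UAS-Antp samples, against 2224, 2716 and 2949 CPM in UAS-GFP samples (log2 fold change -2.91, SE 0.15). In the peripheral stalk, *ATPsynO* was at 143, 170 and 210 CPM in UAS-Antp samples, against 1203, 1166 and 1335 CPM in UAS-GFP samples (log2 fold change -2.83, SE 0.15). *ATPsynD*, of the same stalk, was at 584, 514 and 534 CPM in UAS-Antp samples, against 3481, 3471 and 3938 CPM in UAS-GFP samples (log2 fold change -2.74, SE 0.11). The stalk gene *ATPsynCF6* was at 327, 271 and 322 CPM in UAS-Antp samples, against 1731, 2005 and 1984 CPM in UAS-GFP samples (log2 fold change -2.64, SE 0.12). None of these 4 genes had overlapping groups, and the fold changes of the 11 subunits spanned 0.52 on the log2 scale. The other 5 ran from -2.63 for *ATPsyngamma*, the central shaft, to -2.45 for *ATPsyndelta*, which sits at the foot of that shaft, and included the catalytic subunit *ATPsynbeta* (1645 ± 104 CPM in UAS-Antp and 9503 ± 1264 CPM in UAS-GFP muscles, SD, n = 3 each, log2 fold change -2.53).

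In complex IV 8 of the 9 nuclear main subunits were lower and 1 was higher. The median log2 fold change of the 9 was -2.44, and -2.46 without *COX7A*. These subunits surround the catalytic core, which is made of the products of *COX1*, *COX2* and *COX3* of the mitochondrial genome. These 3 core genes are listed at 0 in all 6 libraries, so they could not be assessed. *COX5B*, which encodes a zinc-binding subunit on the matrix side in mammals, had the largest fall among the 25, with 98.2, 98.6 and 117 CPM in UAS-Antp samples, against 831, 927 and 924 CPM in UAS-GFP samples (log2 fold change -3.10, SE 0.12, adjusted P = 1.43e-08, edgeR). *levy* had the smallest, with 807, 610 and 725 CPM in UAS-Antp samples, against 2480, 3010 and 3789 CPM in UAS-GFP samples (log2 fold change -2.11, SE 0.17, adjusted P = 2.15e-06, edgeR).

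The relative level of these 2 extremes differed between the genotypes. The log2 ratio of *COX5B* to *levy* per kb of exon was -3.34, -2.93 and -2.93 in UAS-Antp samples, against -1.87, -2.00 and -2.33 in UAS-GFP samples, without overlap. The extreme pairs of the other complexes overlapped. The log2 ratio of *UQCR-C1* to *UQCR-11* was 2.00, 2.57 and 2.27 in UAS-Antp samples, against 3.65, 2.55 and 2.74 in UAS-GFP samples, and that of *ATPsynE* to *ATPsynC* was -2.80, -3.30 and -2.85 in UAS-Antp samples, against -2.85, -2.12 and -2.41 in UAS-GFP samples. The pairs were taken for their extreme fold changes, so the ratios are a description. *COX7C* was at 85.9, 98.3 and 124 CPM in UAS-Antp samples, against 600, 648 and 734 CPM in UAS-GFP samples (log2 fold change -2.68, SE 0.15). *cype* was at 86.6, 102 and 123 CPM in UAS-Antp samples, against 570, 673 and 741 CPM in UAS-GFP samples (log2 fold change -2.67, SE 0.16). *COX5A*, the most abundant per kb in either genotype, was at 1067, 1026 and 1045 CPM in UAS-Antp samples, against 4840, 4374 and 7046 CPM in UAS-GFP samples (log2 fold change -2.37, SE 0.18). The other 3, *COX6B*, *COX8* and *COX4*, had log2 fold changes of -2.48, -2.44 and -2.37. *COX6B* shares exon bases on its strand with *CG18809*, a gene with 5614 to 8329 counts in UAS-Antp and 5900 to 7709 in UAS-GFP libraries, against 82435 to 105176 and 161226 to 172981 for *COX6B*.

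**Figure D2:**
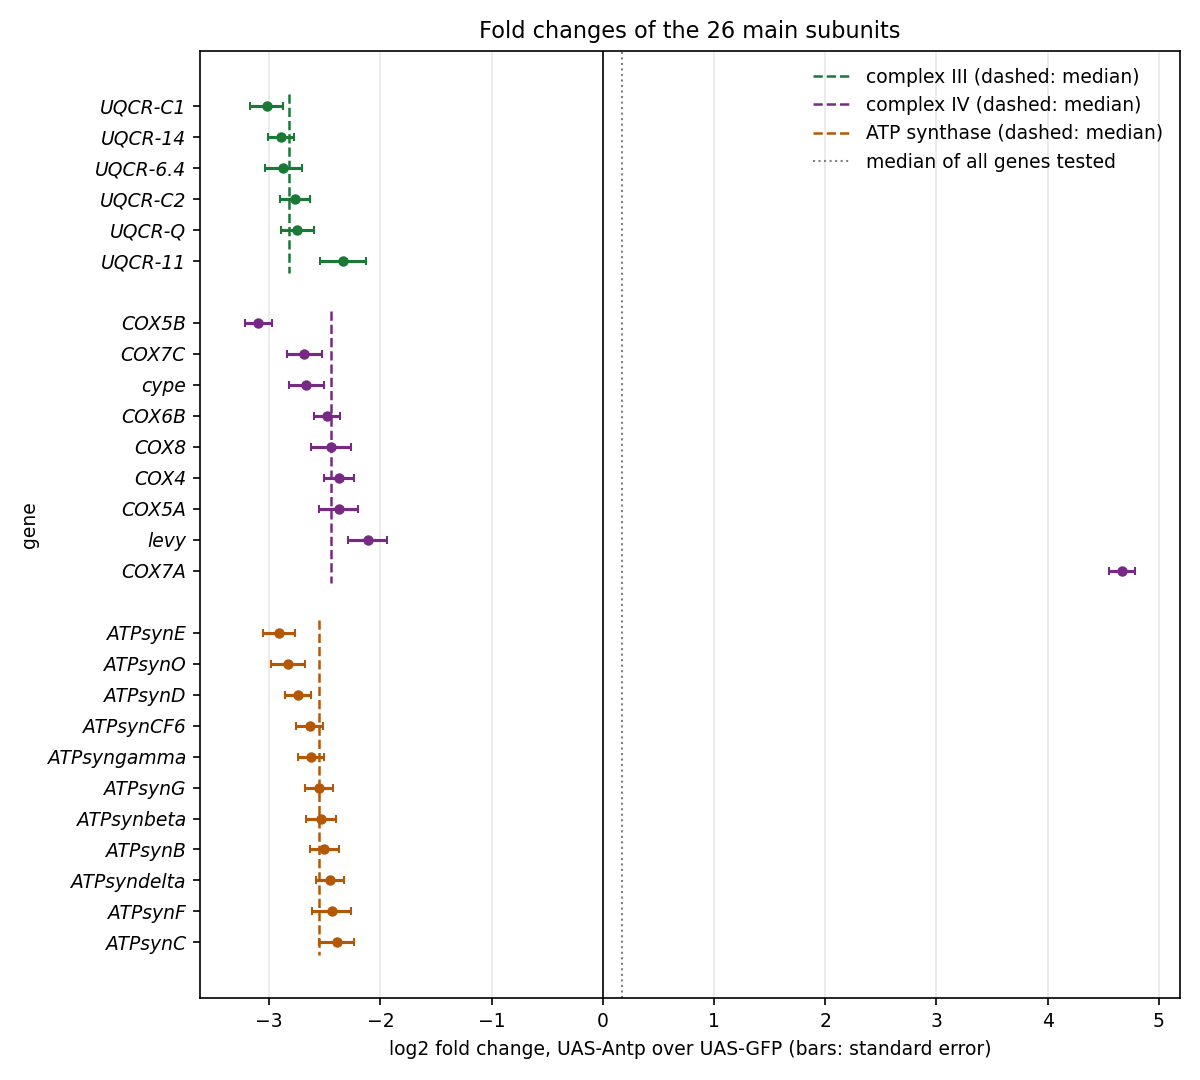
Log2 fold change, UAS-Antp against UAS-GFP (horizontal axis), for each main subunit, by complex, with bars for the standard error, dashed lines at the median of each complex and a dotted line at the median of all genes tested (0.17). Subunits of complex III, complex IV and the ATP synthase lie between -3.10 and -2.11, and *COX7A* stands alone at 4.67.

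Set side by side, complex III had the lowest median (-2.82), followed by the ATP synthase (-2.55) and complex IV (-2.44). Relative to the median of all genes tested these medians were -2.99, -2.72 and -2.61, and with libraries scaled by totals they were -1.50, -1.23 and -1.12 before and -2.99, -2.71 and -2.60 after the median of all genes was taken off. The ranges of the complexes overlapped, since *UQCR-11* of complex III (-2.33) fell less than *ATPsynC* (-2.39) and *COX5B* of complex IV (-3.10) fell more than any gene of complex III. The SD of the log2 fold change between subunits was 0.236 in complex III, 0.292 in complex IV without *COX7A* and 0.167 in the ATP synthase, and the difference between complexes was not tested.

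**Figure D3:**
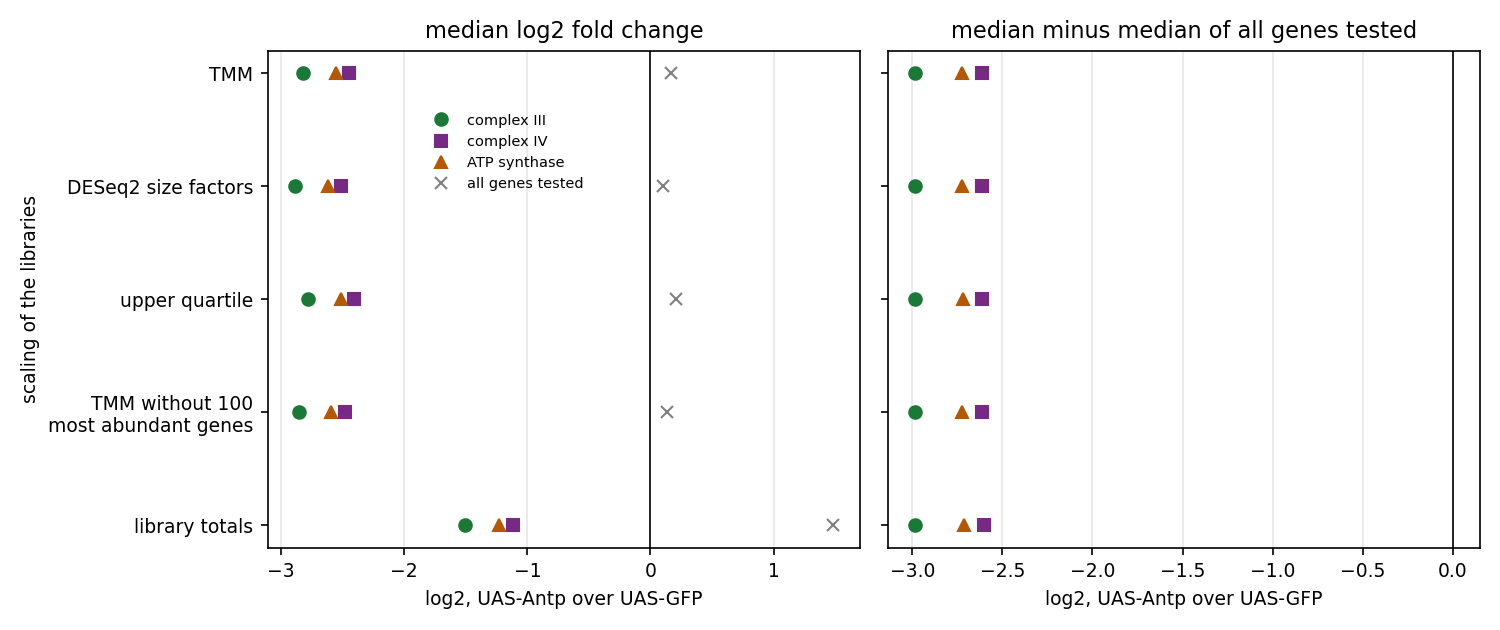
Median log2 fold change of the main subunits of each complex under 5 ways of scaling the libraries (left), and the same after the median of all genes tested was taken off (right). Scaling by library totals moved all 3 complexes and the median of all genes to the right together, and the order complex III, ATP synthase, complex IV was the same in all 5.

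As a share of all counts in a library, which sets the level against the library total, the 39 genes held 2.95%, 3.15% and 3.11% of the counts in UAS-Antp libraries, against 6.70%, 6.46% and 7.35% in UAS-GFP libraries. The groups did not overlap, and the mean was 2.23 times higher in UAS-GFP, or 3.11 times with the 100 most abundant other genes left out of the totals. Complex III held 0.274% ± 0.0144 of the counts in UAS-Antp and 0.794% ± 0.0423 in UAS-GFP libraries, complex IV 0.733% ± 0.0436 and 1.45% ± 0.182, and the ATP synthase 2.06% ± 0.106 and 4.60% ± 0.355 (SD, n = 3 each). Within a library, the log2 ratio of the summed level per kb of complex III to that of the ATP synthase was -2.60, -2.79 and -2.60 in UAS-Antp samples, against -2.34, -2.25 and -2.36 in UAS-GFP samples. That of complex III to complex IV was -1.95, -2.01 and -2.01 in UAS-Antp samples, against -1.24, -1.48 and -1.49 in UAS-GFP samples. Both ratios were lower in UAS-Antp muscles without overlap, whereas that of complex IV to the ATP synthase overlapped (-0.65, -0.78 and -0.60 in UAS-Antp samples, against -1.10, -0.77 and -0.87 in UAS-GFP samples). The summed level per kb of complex IV includes *COX7A*, on average 7.70% of it in UAS-Antp and 0.0633% in UAS-GFP muscles, so its rise enters these ratios. These shares and sums hold only genes found by their symbols and do not cover whole complexes. They leave out *Cyt-c1*, *RFeSP* and *ox* of complex III, *COX7B* and *COX7AL2* of complex IV, and *blw* and *sun* of the ATP synthase.

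The order of the subunits by level per kb changed little apart from *COX7A*. Across the 25 other genes, Spearman's rho between the mean level in UAS-Antp and in UAS-GFP muscles was 0.990, and it was 0.909 with *COX7A*, as a description over genes of the same 6 libraries. In UAS-GFP muscles the order in complex III was *UQCR-C1* and *UQCR-14*, *UQCR-Q* and *UQCR-C2*, then *UQCR-6.4* and *UQCR-11*, where the genes of each pair overlapped between libraries. The same 3 pairs stood in the same order in UAS-Antp muscles. In the ATP synthase *ATPsynC* came first and *ATPsynF* next in both genotypes, each without overlap with the gene after it, and *ATPsyndelta* came last.

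In complex IV *COX5A*, *COX6B*, *COX4* and *levy* formed the top of the order in both genotypes and each overlapped with its neighbor. *COX7A* was last of 9 in UAS-GFP muscles, where the next gene, *COX7C*, was 44.0-fold higher per kb, and it was 5 of 9 in UAS-Antp muscles, above *COX8* and below *COX4* and without overlap with either.

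*COX7A* (FBgn0040529) lies on the minus strand of chromosome 3R at 8339944 to 8341043 (dm6). It had 31077, 39297 and 33458 counts in UAS-Antp samples, against 487, 410 and 429 counts in UAS-GFP samples. In CPM this was 291, 315 and 331 in UAS-Antp samples, against 12.2, 12.8 and 11.8 in UAS-GFP samples, so that the genotypes lay far apart and the samples within each close together. The log2 fold change was 4.67 (SE 0.12, adjusted P = 1.52e-09, edgeR), and it was 5.99 with libraries scaled by totals. Leaving out each library in turn gave 4.63 to 4.72. Among all 9546 genes tested, *COX7A* ranked 385 by log2 fold change, and 27 genes past the threshold were at least as high as it both in fold change and in mean CPM in UAS-Antp muscles.

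Ratios within a library do not depend on the scaling. The log2 ratio per kb of *COX7A* to *COX5B* was 1.63, 1.74 and 1.57 in UAS-Antp samples, against -6.03, -6.11 and -6.23 in UAS-GFP samples, a difference of 7.77 (exact two-sided permutation test, P = 0.1, the smallest that 3 samples against 3 allow). *COX5B* had the largest fall of the subunits, and the pair was taken after the fold changes were known, so this ratio is a description. Among the other 8 subunits the difference was largest against *COX5B* and smallest against *levy*, at 6.77. Against the median of the other 8 subunits the difference was 7.03 (exact permutation P = 0.1). *COX7A* was picked because it was higher, and the other 8 lower, without overlap. Both P values therefore followed from values already known, and this ratio too is a description. *COX7A* made up 7.70% ± 0.525 of the summed level per kb of the main subunits of complex IV in UAS-Antp muscles and 0.0633% ± 0.0102 in UAS-GFP muscles (SD, n = 3 each).

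A further gene of this family is listed in the count table under an older symbol, *CG34172*, and so was not among the 39. It is named *COX7AL2* in the current annotation, and it was looked at after the values of *COX7A* were known. *COX7AL2* lies on chromosome 2L at 2192525 to 2197912. It had 3753, 4097 and 5032 counts in UAS-Antp samples, against 9476, 9926 and 10897 counts in UAS-GFP samples, and 39.2 ± 9.18 CPM in UAS-Antp muscles, against 282 ± 39.4 CPM in UAS-GFP muscles (SD, n = 3 each). Its log2 fold change was -2.85 (SE 0.18, adjusted P = 3.29e-07, edgeR), in the range of the 25 lower subunits.

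The relative level of these 2 genes was therefore opposite in the 2 genotypes. The log2 ratio per kb of *COX7A* to *COX7AL2* was 3.49, 3.70 and 3.17 in UAS-Antp samples, against -3.85, -4.16 and -4.23 in UAS-GFP samples, a difference of 7.53 (exact two-sided permutation test, P = 0.1, the smallest possible). Since both genes differed between the genotypes without overlap and in opposite directions, that P followed from their values, and the ratio is a description. *COX7A* contributed 91.5% ± 1.44 of the sum of both per kb in UAS-Antp muscles and 5.62% ± 0.775 in UAS-GFP muscles (SD, n = 3 each). That sum was 454, 487 and 528 CPM per kb in UAS-Antp samples, against 269, 348 and 334 CPM per kb in UAS-GFP samples, so that its groups did not overlap and UAS-Antp was the higher one, whereas each of the other 8 subunits was lower in UAS-Antp muscles. These levels rest on the deposited exon lengths of 697 bases for *COX7A* and 943 bases for *COX7AL2*.

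**Figure D4:**
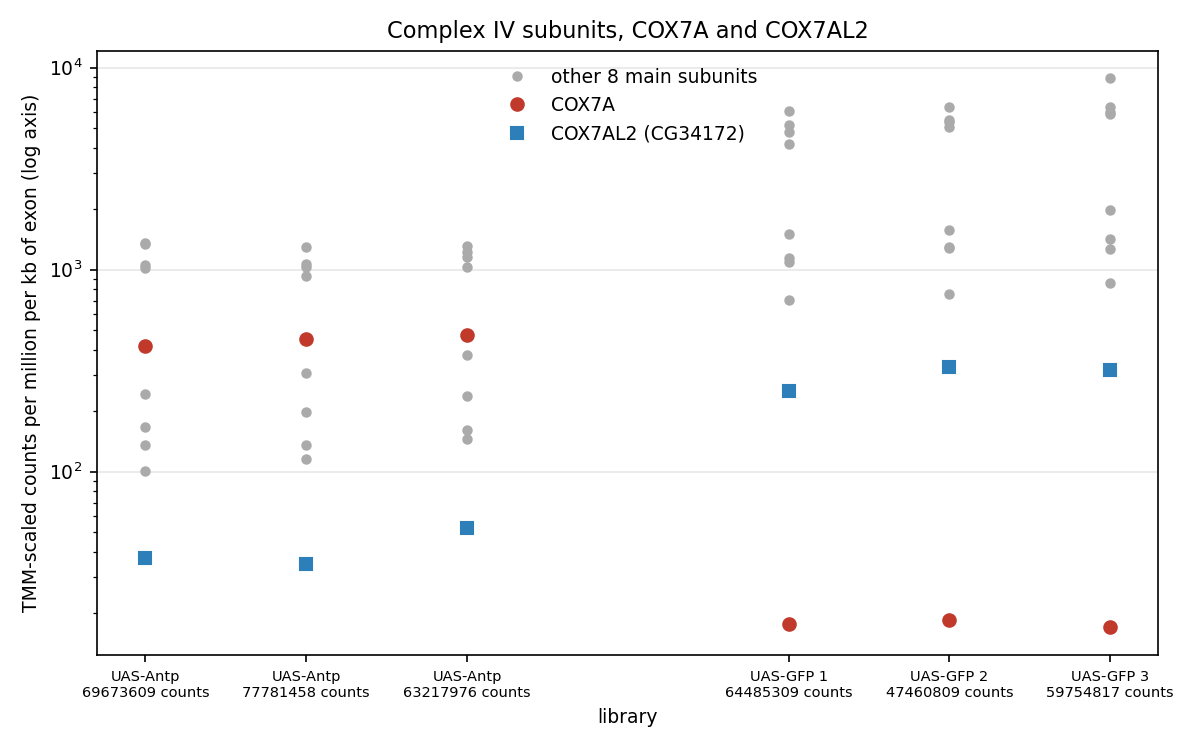
Level per kb of exon, as TMM-scaled counts per 1000000 on a log axis, of the 9 main subunits of complex IV and of *COX7AL2* in each library, with the UAS-Antp samples on the left and the UAS-GFP samples on the right. *COX7A* (red) lies in the middle of the other 8 subunits (gray) in UAS-Antp muscles and below all of them in UAS-GFP muscles, whereas *COX7AL2* (blue) lies below *COX7A* in UAS-Antp muscles and above it in UAS-GFP muscles (log2 ratio of *COX7A* to *COX7AL2* 3.17 to 3.70 and -4.23 to -3.85).

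By the same check of current names, 5 more genes of these families were found under other symbols. *COX7B* (*CG7630*), a further complex IV gene, had 46247, 50488 and 44596 counts in UAS-Antp samples, against 92707, 88039 and 120371 counts in UAS-GFP samples (log2 fold change -2.71, SE 0.14, adjusted P = 8.81e-08, edgeR). *COX7CL* (*CG44296*) was sparse, with 0, 36 and 14 counts in UAS-Antp samples, against 32, 12 and 6 counts in UAS-GFP samples, and its groups overlapped (adjusted P = 0.269, edgeR). *COX6AL2* and *UQCR-6.4L* had 4 and 6 counts in the UAS-Antp sample of 77781458 counts and 0 in all others, and *COX6CL* had 0 in all 6.

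The 10 L paralogs were near or at the lower limit of detection in both genotypes, whereas their main subunits had from 410 to 390682 counts per library. *COX7AL2*, left out of these 10 by its older symbol, was not near that limit. It had 3753 to 5032 counts in UAS-Antp and 9476 to 10897 in UAS-GFP libraries, where *COX7A* had 410 to 487. A library with 0 counts allows up to 3 counts, a limit that covers counting error only, and between 75.0% and 81.0% of the counts from 5 to 50 in a library were even numbers, so that the number of molecules may be lower than the count. Of the 10, only *UQCR-11L* and *COX5BL* passed the filter on low counts. Neither passed the threshold in edgeR's quasi-likelihood test, although both had an unadjusted P under 0.05, and DESeq2 called 1 of them, *UQCR-11L* (20.8% of the genes DESeq2 tested were called lower). With the filter, edgeR thus called 0 of the 2 tested L paralogs and 26 of 26 main subunits, against 35.6% of all genes tested. The log2 fold changes of these 2 paralogs were -4.95 and -3.09, at no more than 89 counts in any library. The calls therefore do not show that the paralogs changed less than the main subunits.

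*UQCR-11L* had 0, 5 and 12 counts in UAS-Antp samples, against 89, 61 and 31 counts in UAS-GFP samples. All 3 UAS-GFP samples were above all UAS-Antp samples, and the log2 fold change was -4.95 (SE 1.01, adjusted P = 0.00173, edgeR). With no filter on low counts its adjusted P was 3.63e-05 in edgeR, where 16.0% of genes were called lower, and DESeq2 gave 2.91e-09. Relative to its main subunit *UQCR-11*, the log2 ratio within a library was -12.14 ± 2.51 in UAS-Antp and -8.78 ± 1.11 in UAS-GFP samples (SD, n = 3 each), a difference of -3.36 (exact two-sided permutation test, P = 0.1, the smallest possible). Without the UAS-Antp sample of 69673609 counts, in which it had none, the difference was -1.95.

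*COX5BL* had 4, 5 and 11 counts in UAS-Antp samples, against 24, 4 and 32 counts in UAS-GFP samples, so that UAS-GFP replicate 2 lay within the range of the UAS-Antp counts. After scaling it was at 0.125 CPM, just above the highest UAS-Antp sample at 0.109 CPM, and the groups did not overlap (log2 fold change -3.09, SE 0.99, adjusted P = 0.0204, edgeR). The log2 ratio to *COX5B* differed by 0.29 (exact permutation P = 0.8), which is less than the spread between samples, and leaving out each library in turn moved this difference between -0.55 and 0.81.

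The other 8 L paralogs had counts in 1 library at most. *UQCR-14L* had 15 counts, *ATPsynCF6L* and *COX4L* 8 counts each and *COX6AL* 4 counts, all in the UAS-Antp sample of 77781458 counts. *ATPsynepsilonL* had 4 counts in UAS-GFP replicate 1 and *COX7AL*, the neighbor of *COX7A* on 3R, 2 counts in UAS-GFP replicate 2. *ATPsynGL* and *ATPsynbetaL* had none in any library. The UAS-Antp sample of 77781458 counts had 6 of the 10 paralogs above 3 counts, against 1 and 2 for both other UAS-Antp samples and 3, 2 and 2 for the UAS-GFP samples. The same library had 13 of 21 testis genes and 12 of 13 eggshell genes above 3 counts, against 4 and 3 testis genes and 1 and 5 eggshell genes for both other UAS-Antp samples and at most 2 testis and 3 eggshell genes for any UAS-GFP sample. The testis genes summed to 8.34 to 10.2 CPM in UAS-Antp and 0.156 to 0.952 CPM in UAS-GFP libraries. Most of the UAS-Antp sum came from 1 gene, *tomb*, with 800, 687 and 789 of the 941, 1273 and 843 counts in UAS-Antp samples, against 0 in every UAS-GFP sample. *aly*, *can*, *nht* and *fzo* were at 0 in all 6 libraries, and the eggshell genes summed to 3.26 to 12.4 CPM in UAS-Antp and 0.522 to 1.19 CPM in UAS-GFP libraries. The part of such tissue in the paralog counts was not tested. Without this library all 26 main subunits kept their direction and passed the threshold.

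**Figure D5:**
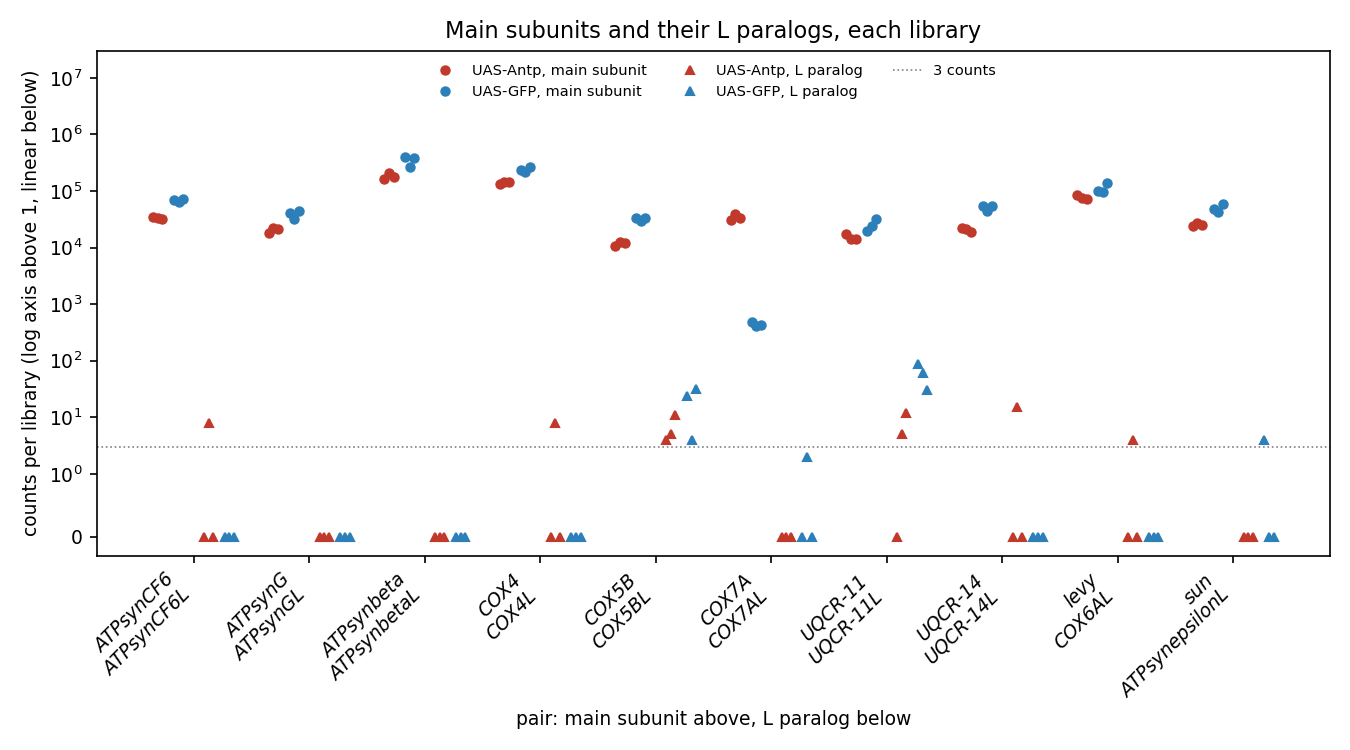
Counts per library of the 10 L paralogs (triangles) and of their main subunits (circles) in UAS-Antp (red, left) and UAS-GFP samples (blue, right), on an axis that is logarithmic above 1 and linear below, with a dotted line at 3 counts. Main subunits lie at 410 counts or more, and paralogs at 89 or fewer.

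Subunits of the same complexes whose symbols do not follow the pattern, *blw*, *sun*, *RFeSP*, *Cyt-c1* and *ox*, moved with the rest. The list held 8 genes, since it also took in the paralog *Cyt-c1L* and the electron carrier genes *Cyt-c-p* and *Cyt-c-d*. Of these 8, 7 were tested and 6 were lower past the threshold, as were 19.3% of all genes tested. *blw*, the alpha subunit of the ATP synthase, had a log2 fold change of -2.63, and *sun*, its epsilon subunit, of -2.56. In complex III the Rieske iron-sulfur protein *RFeSP* had -2.61, cytochrome c1 (*Cyt-c1*) -2.71 and the small subunit *ox* -2.20. Cytochrome c itself, which carries electrons from complex III to complex IV, fell further. *Cyt-c-p* had 27878, 32986 and 30187 counts in UAS-Antp samples, against 150150, 131640 and 192686 counts in UAS-GFP samples, with a log2 fold change of -4.00 (SE 0.16, adjusted P = 1.67e-08, edgeR). The second cytochrome c gene, *Cyt-c-d*, was sparse, with 110, 255 and 194 counts in UAS-Antp samples, against 38, 24 and 72 counts in UAS-GFP samples, and its scaled levels overlapped (log2 fold change 0.44, adjusted P = 0.457, edgeR).

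Beyond these complexes, all 33 tested genes of complex I (of 40 on the list) were lower, with a median log2 fold change of -2.65, as were all 5 tested genes of complex II (of 6, median -2.51) and all 73 genes of the mitochondrial ribosome (median -2.47). These medians lie between those of complex III (-2.82) and complex IV (-2.44). With libraries scaled by totals every one of these genes still had a negative log2 fold change, and 32, 4 and 55 of them passed the threshold. Of all genes tested, 7.18% were lower past the threshold with that scaling and 19.3% with TMM. All 10 assembly factors found on the list were lower, with a median of -2.36, and with scaling by totals 9 were lower past the threshold and *Coa7* was at 0.0056. They ran from -1.31 for *Coa7* to -4.42 for *Cox17* (*CG9065* in the count table), a copper chaperone for complex IV, which had 1015, 1247 and 1364 counts in UAS-Antp samples, against 10002, 7738 and 7747 counts in UAS-GFP samples (adjusted P = 1.19e-08, edgeR).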

How the data were processed

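The authors deposited raw counts of uniquely mapped reads per gene of a FlyBase annotation of dm6, without normalization. The submitters' processing notes name bcl2fastq, Subread, featureCounts and DESeq2 1.34, and alignment settings are not given in the sources used here. The authors' comparison table was used for gene symbols (17582 of 17611 genes) and its fold changes and P values were not used. Current names came from a gene name table.

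Counts were filtered with filterByExpr, scaled with TMM and tested with edgeR 4.0.16 (R 4.3.3, quasi-likelihood test, Benjamini-Hochberg adjustment over 9546 genes, threshold 0.001 as in the study, which used DESeq2). The standard error (SE) is the size of the log2 fold change divided by the square root of F. CPM per kb used the deposited exon lengths. Ratios of L paralogs to main subunits used log2 of counts plus 0.5, where the 0.5 was scaled by the library's total over the median total. Values in every sample are given, for each complex, for the 4 main subunits with the largest and the 2 with the smallest change, any main subunit that goes the other way, the most abundant one per kb and every L paralog above 3 counts. Members and lists were chosen with earlier results of these data known. On simulated counts, the method recovered 106 of 111 genes changed by 2 on the log2 scale and 4 of 89 changed by 1, with 0 false calls. Few genes changed in that simulation and all had the same spread, so it could not show errors of scaling when many genes change. That spread was larger than for many well-counted genes here, so the numbers recovered do not measure how often the test finds such changes in these data. For example, *Roc1a* (log2 fold change -0.86, adjusted P = 3.16e-05, edgeR) and *AMPKalpha* (-0.54, adjusted P = 0.000692, edgeR) passed the threshold. DESeq2 1.42.0, other scalings, filters, thresholds and leaving out each library were alternatives. The lists covered 21 of 23 testis markers. Promoter motifs and sequences were not analysed here.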

Additional observations from a re-analysis of the deposited data

How the results depend on the processing

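Every main subunit kept its direction and its side of the threshold under all 14 alternative fits (364 of 364 results over 26 genes), which changed the scaling, the filter or the test or left out 1 library. Scaling by library totals moved the median log2 fold changes to -1.50 for complex III, -1.12 for complex IV and -1.23 for the ATP synthase, along with the median of all genes tested (1.48). The number of all genes past the threshold was 5656 (4971 higher) with library totals, 1694 (713 higher) when edgeR's glmTreat tested against a log2 fold change of 1 and 5807 (3123 higher) at a threshold of 0.05, against 3397 (1557 higher) in the test reported. Of the L paralogs, 1 was called lower with no filter on low counts, 1 by DESeq2 and 2 at a threshold of 0.05. Of all genes tested, 16.0%, 20.8% and 28.1% were called lower in these 3 settings. *UQCR-11L* had a log2 fold change of -4.95 with no filter and -5.07 with DESeq2. The difference in the share of counts, UAS-Antp minus UAS-GFP, was -3.77 percentage points, and -10.4 when the 100 most abundant other genes were left out of the totals. Leaving out each library gave medians of -2.89 to -2.75 for complex III, -2.53 to -2.32 for complex IV and -2.64 to -2.47 for the ATP synthase, and -3.95 to -3.51 percentage points for the share. The ratios of *COX7A* to *COX5B*, to the median of the other 8 subunits and to *COX7AL2* were added after the data had been seen. Low counts limit the L paralogs, of which 8 could not be tested. No paired analysis was possible because the labels number the UAS-Antp samples 4 to 6 and the UAS-GFP samples 1 to 3 and share no number. The columns of the count table are numbered 1 to 3 in both genotypes, but for UAS-Antp these are not the numbers of the labels, so they were not taken to pair samples.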

Other observations

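The neighbors of *COX7A* on chromosome 3R did not all move with it. *Arl2*, which encodes a small GTPase and starts 57 bases away on the other strand, had 297, 220 and 184 counts in UAS-Antp samples, against 20, 40 and 22 counts in UAS-GFP samples (log2 fold change 1.44, adjusted P = 0.0199, edgeR). For *CG9601*, 618 bases away, the log2 fold change was 0.97 (adjusted P = 0.00115, edgeR), and neither gene passed the threshold. With libraries scaled by totals both did, with log2 fold changes of 2.73 for *Arl2* and 2.28 for *CG9601* (adjusted P = 0.000332 and 1.43e-06, edgeR), and with the upper quartile *CG9601* did (1.00, adjusted P = 0.000873, edgeR). *DppIII*, a dipeptidyl peptidase gene 3357 bases away, was lower, with a log2 fold change of -1.41 (adjusted P = 1.12e-06, edgeR), and its log2 fold change was -0.09 with libraries scaled by totals. Of the other tested neighbors, *CG7352* had 12, 36 and 40 counts in UAS-Antp samples and 0 in every UAS-GFP sample. Its log2 fold change was 7.30 (adjusted P = 0.00973, edgeR). *Atg13* was lower past the threshold, at -1.34 (adjusted P = 1.59e-05, edgeR). *stck* (-0.60) and *CG9684* (-1.37) did not pass it (adjusted P = 0.00137 and 0.00423, edgeR). These genes were looked at after the value of *COX7A* was known, and all lie within 20000 bases of it.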
